A study of Mus musculus with 7 samples.

Results

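The collagen genes of whole mouse colon tumors were described by structural class. They were taken as all protein-coding genes of the count table whose symbol has the form of a collagen alpha chain (*Col*, number, *a*, number), which gave 44 of the 43346 genes in the table. Tumors had been grown in C57BL6/J mice that received bone marrow (BM) and were then given 10 mg/kg of the carcinogen azoxymethane (AOM) and 3 cycles of 3% dextran sulfate sodium (DSS), which injures the colon and drives colitis-associated cancer. In 4 mice the graft was Dnmt3a(+/-) BM, with 1 functional allele of the DNA methyltransferase gene *Dnmt3a*, and in 3 mice it was Dnmt3a(+/+) BM. The donors of both grafts carried the *Mx1*-Cre transgene, which is active mainly in blood cells after poly(I:C) and can also recombine in other interferon-responsive cells, and had been given poly(I:C). All recipients were wild-type congenic mice that had been lethally irradiated, so the tumor epithelium, fibroblasts and vessels came from wild-type hosts. The labels give the recipients' age as 8 wk, the methods a younger age, and both sexes were used. The tumors came from 2 transplantation experiments, BMT18 (Dnmt3a(+/+) replicates 1 and 2, Dnmt3a(+/-) replicates 1 and 2) and BMT8 (Dnmt3a(+/+) replicate 3, Dnmt3a(+/-) replicates 3 and 4). Each sample was 1 tumor, with 38472738 to 64314999 counts of polyadenylated RNA. Levels of a gene are given as CPM, its share of the counts after TMM scaling, which adjusts library sizes for composition, and levels are compared between genes only as CPM per kb of exon.

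Collagens are secreted or membrane-bound proteins in which 3 alpha chains wind into a triple helix. The helix needs a glycine as the first residue of each triplet, the Gly-X-Y repeat, because only glycine fits at its axis. Fibrillar collagens have a long unbroken helix and assemble into the fibers that give tissue its strength, and in the colon they are made mainly by fibroblasts. Type IV chains form the sheet-like network of basement membranes under epithelium and around vessels, type VI chains form beaded filaments around cells, and FACIT collagens sit on the surface of fibrils. Collagen XVII crosses the membrane of basal keratinocytes at hemidesmosomes, and collagen VII makes the anchoring fibrils beneath them, so both belong to stratified squamous epithelium more than to the simple epithelium of the colon.

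The coding sequences show how the classes differ, and they are given here because the classes, assigned by gene name, are classes of structure and not of expression. In GENCODE M21, glycine codons (GGN) start triplet after triplet in unbroken runs. In 24 codons from the longest run of *Col1a1* the repeat was complete, in 20 codons of *Col4a1* it was broken once, and in 24 codons of *Col17a1* it ended at the close of the longest run. Capitals mark the GGN codons.
Col1a1: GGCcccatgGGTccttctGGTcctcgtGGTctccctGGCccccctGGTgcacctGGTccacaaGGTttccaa
Col4a1: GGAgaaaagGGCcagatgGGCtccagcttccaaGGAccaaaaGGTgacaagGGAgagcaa
Col17a1: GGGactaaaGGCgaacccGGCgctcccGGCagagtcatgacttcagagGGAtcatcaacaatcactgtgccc
The *Col1a1* stretch covers codons 168 to 191, the *Col4a1* stretch codons 215 to 234 and the *Col17a1* stretch codons 804 to 827. Over whole coding sequences, the longest run of the 11 fibrillar chains was 216 to 344 triplets, in 2 or 3 runs of at least 5 triplets. The 6 Col4 chains had 22 to 27 such runs and a longest one of only 39 to 66 triplets, although 74.9% to 78.8% of their codons lay in runs. The 6 Col6 chains had longest runs of 37 to 87 triplets and as little as 11.7% of their codons in runs. *Col17a1* had 14 runs with a longest of 55 triplets, and *Col7a1* 20 runs with a longest of 75.

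**Figure D1:**
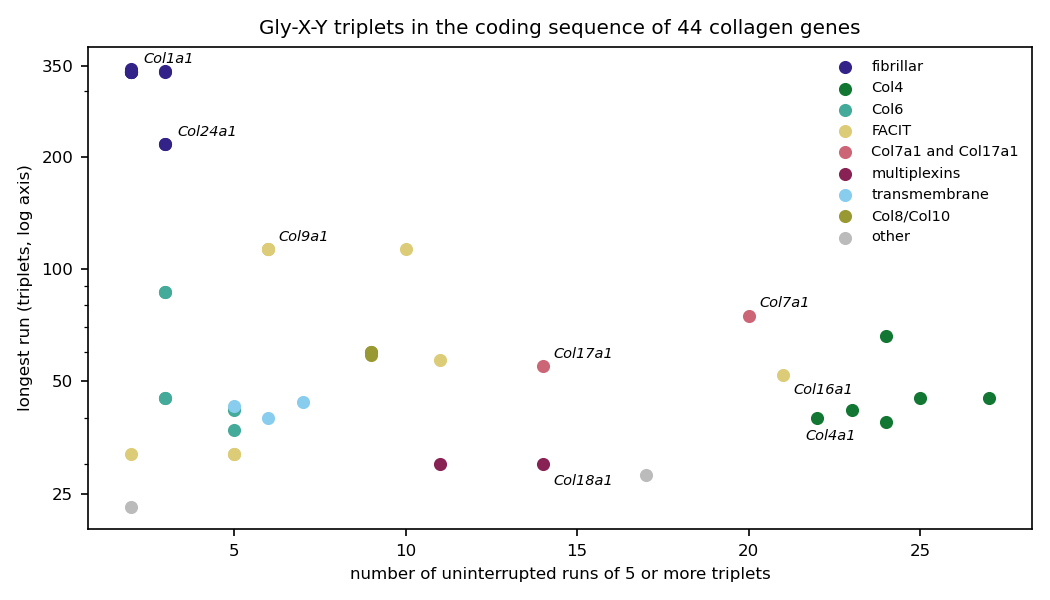
Number of uninterrupted runs of 5 or more Gly-X-Y triplets (x axis) against the longest run in triplets (y axis, log scale) in the longest annotated coding sequence of each of the 44 collagen genes, colored by class (some points coincide). Fibrillar chains sit at the upper left, with longest runs of 216 to 344 triplets, and Col4 chains at the lower right, with 22 to 27 short runs.

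One tumor stood apart from the other 6 and carried much of the collagen signal. Collagen genes took 0.0505%, 0.0322% and 0.0462% of all counts in Dnmt3a(+/+) replicates 1 to 3. In Dnmt3a(+/-) replicates 1 to 4 they took 0.0722%, 0.248%, 0.0567% and 0.0655%. Dnmt3a(+/-) replicate 2 was thus the highest by far, and it was the highest of the 7 tumors in 23 of the 32 collagens tested, against 24.7% of all genes tested. It was over 2 times the next tumor in 16 of the 32 (4.87% of all genes) and the lowest in 2 (25.3% of all genes). Its closest tumor in rank correlation across genes was also the most distant (0.949, against 0.973 to 0.984 for the other 6). Marker lists set it apart too. The summed CPM of 8 endothelial genes was 163 in it, against 16.6 to 36.9 with Dnmt3a(+/+) BM and 33.3 to 85.5 in the other Dnmt3a(+/-) tumors. For 10 fibroblast genes the sum was 186.5 against 49.1 to 96.2 and 68.3 to 126.4, and for 9 colon epithelial genes it was 9014 against 15310 to 31300 and 12460 to 19970. It was also highest in the sums of 6 pericyte genes (95.9 CPM, next 63.1) and of 7 leukocyte genes (109 CPM, next 56.2). The pericyte genes were mixed: replicate 2 was the highest tumor in 4 of the 6, but the lowest for *Cspg4*, at 1.59 CPM. *Notch3* was at 4.93 CPM in it and at 46.96 CPM in Dnmt3a(+/-) replicate 1, the next tumor by the sum. The colon epithelial genes were mixed too. Replicate 2 was the lowest tumor for *Epcam*, *Krt8*, *Krt19*, *Krt20*, *Vil1* and *Cdx1*, but not for *Cdh1*, *Krt18* and *Cdx2*. For *Epcam* the margin was small, 1543 CPM against 1574 CPM in Dnmt3a(+/-) replicate 1. *Cdx2* was at 21.4 CPM in replicate 2, exceeded only by Dnmt3a(+/-) replicate 4.

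Squamous epithelial genes, which a simple colon epithelium lacks, were abundant in the other 6 tumors. The summed CPM of 7 such genes (*Krt5*, *Krt14*, *Krt15*, *Trp63*, *Dsg3*, *Krt13* and *Krt4*) was 21580, 3971 and 5192 in Dnmt3a(+/+) replicates 1 to 3. It was 23210, 263, 4690 and 5005 in Dnmt3a(+/-) replicates 1 to 4. In Dnmt3a(+/-) replicate 2 *Krt5*, the keratin of basal cells, was at 0.0815 CPM and *Trp63*, the transcription factor that defines them, at 0.0204 CPM, while *Krt5* reached 927 to 5963 CPM in the other 6. Smooth muscle genes were low in 1 tumor, with a summed CPM of 23.4 in Dnmt3a(+/+) replicate 3 against 249 to 1222 in the rest. The part of these differences in cell content in the collagen values was not tested, and in whole tumors fewer cells of a type and less RNA per cell cannot be told apart. Values are therefore given with and without Dnmt3a(+/-) replicate 2, and within each experiment.

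Summed over the 44 genes, the collagen level per kb of exon was 75.01, 43.6 and 73.6 with Dnmt3a(+/+) BM (replicates 1 to 3) and 102, 266.5, 74.4 and 93.8 with Dnmt3a(+/-) BM (replicates 1 to 4). Over the 7 tumors the most abundant gene per kb was *Col17a1* (mean 19.7 CPM per kb), followed by *Col3a1* (15.6), *Col4a1* (13.9), *Col4a2* (8.76), *Col1a1* (8.60) and *Col18a1* (6.11). That order did not hold from tumor to tumor, since *Col17a1* ranged from 1.42 to 48.6 CPM per kb. It also depended on gene length, since with the longest transcript in place of all exons *Col3a1* led at 27.5 CPM per kb and *Col1a2* rose from 4.12 to 9.57. The hemidesmosome and anchoring fibril pair, *Col17a1* and *Col7a1*, made up 45.4%, 22.5% and 22.9% of the summed level with Dnmt3a(+/+) BM and 50%, 0.705%, 16.5% and 20.9% with Dnmt3a(+/-) BM. Fibrillar collagens made up 26.6%, 30.5% and 34.2%, and 20.5%, 40.2%, 26.2% and 31%. These shares overlapped between the groups. The multiplexins, basement membrane zone collagens whose C-terminal parts can be released, took 3.53%, 5.25% and 5.17% with Dnmt3a(+/+) BM and 4.39%, 9.14%, 7.28% and 8.08% with Dnmt3a(+/-) BM, so the last 3 exceeded all Dnmt3a(+/+) tumors and replicate 1 did not.

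**Figure D2:**
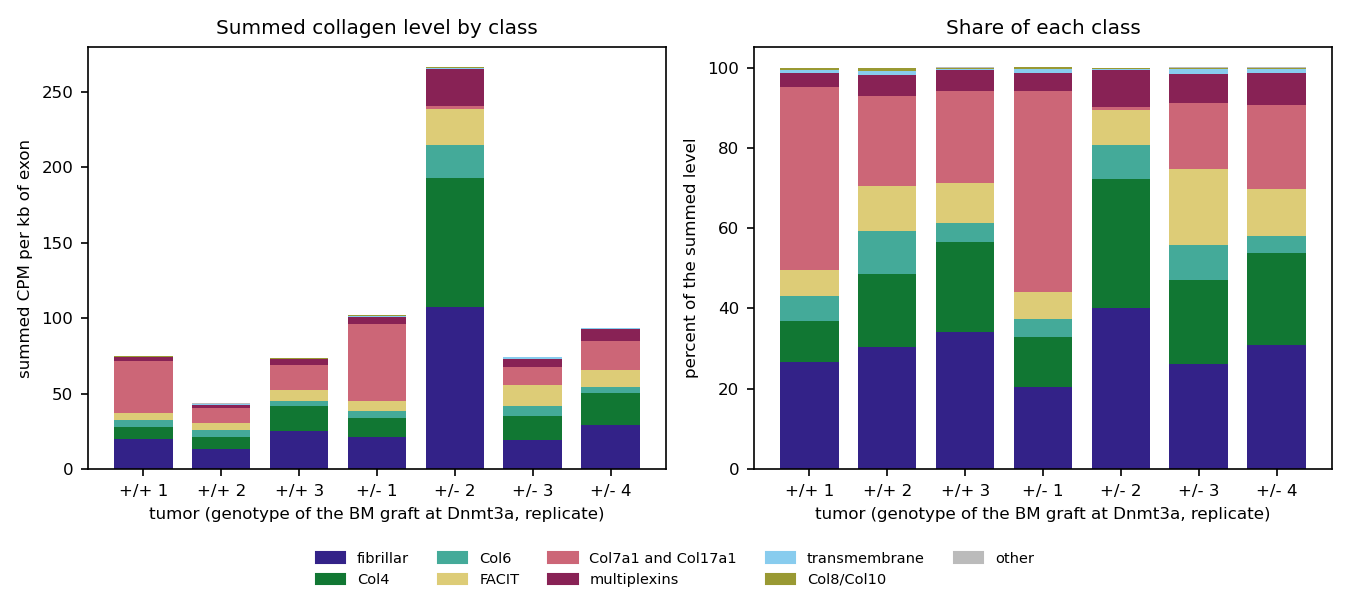
Left, CPM per kb of exon summed over the collagen genes of each class in each of the 7 tumors (bars, 1 per tumor, no error since each is 1 sample); right, the same as percent of each tumor's sum. Dnmt3a(+/-) replicate 2 reached 266.5 CPM per kb, with 0.705% from *Col7a1* and *Col17a1*.

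**Figure D3:**
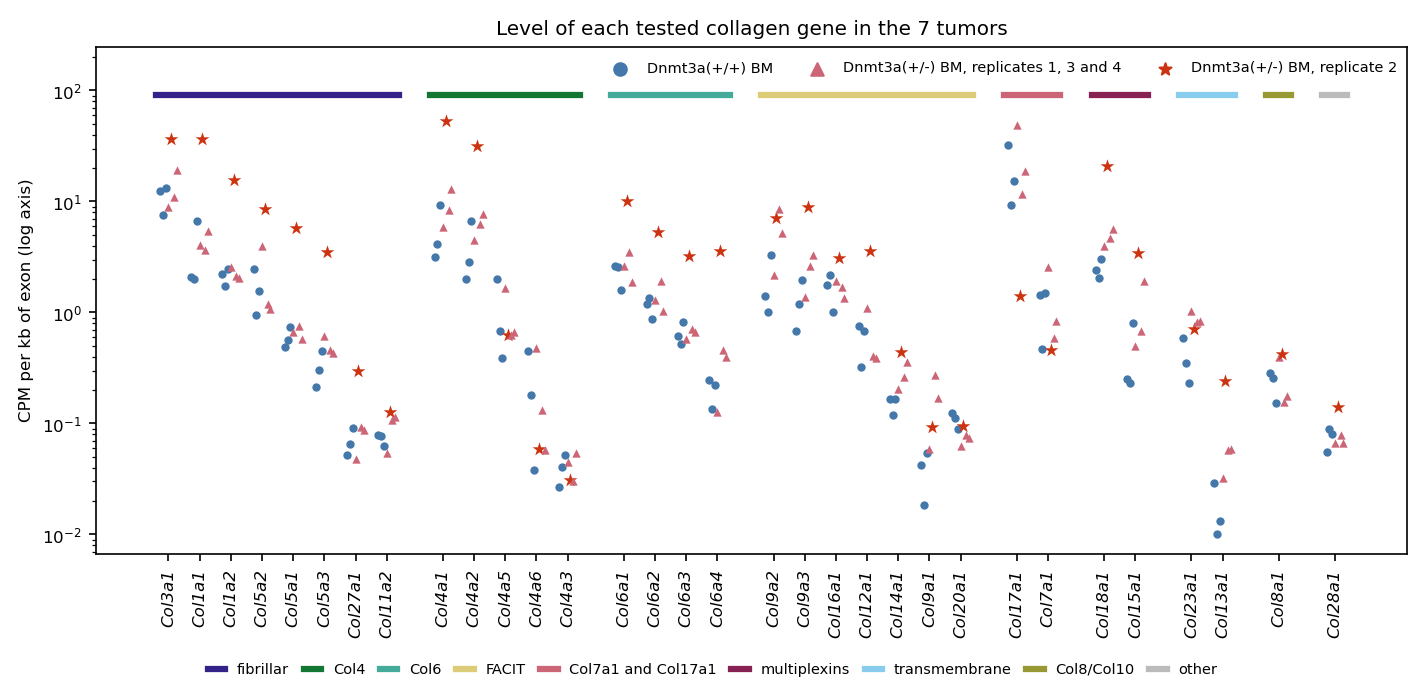
CPM per kb of exon (log axis) of the 32 tested collagen genes, ordered by class and then by mean level; each point is 1 tumor, circles Dnmt3a(+/+) BM, triangles and the star Dnmt3a(+/-) BM. The star, Dnmt3a(+/-) replicate 2, is the highest point in 23 of the 32 genes and the lowest for *Col17a1* and *Col7a1*.

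The main comparison asked whether collagen expression differed between tumors grown with Dnmt3a(+/-) and with Dnmt3a(+/+) BM. Of the 44 genes, 32 had enough counts to be tested. edgeR's quasi-likelihood test called 0 of the 32, with an adjusted p below 0.05 and a log2 fold change beyond 1 in either direction needed for a call, as it called 0 of all 15810 genes tested (0%), and the lowest adjusted p of a collagen was 0.403, for *Col18a1*. At an unadjusted p under 0.05, 8 collagens were higher with Dnmt3a(+/-) BM, where the background over all genes was 5.83%, and 0 were lower (background 5.20%). That count depended on single tumors: it was 3 without Dnmt3a(+/+) replicate 1, 0 without Dnmt3a(+/+) replicate 2 and 4 without Dnmt3a(+/-) replicate 2. The count over all genes, in either direction, moved too. It was 1744 of 15810 with all 7 tumors, and 1271 of 16221, 883 of 16299 and 1114 of 15567 in these 3 fits. DESeq2 called 300 genes (1.87% of 16056) and again 0 collagens with all 7 tumors. It gave no adjusted p for 4 of the 32, *Col1a1*, *Col1a2*, *Col5a1* and *Col5a3*. Of the other 28, 11 had a higher mean with Dnmt3a(+/-) BM at an unadjusted p under 0.05, where 5.55% of all genes did. Since no collagen passed either test with all 7 tumors, the values below describe these tumors.

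Most collagens had a higher mean with Dnmt3a(+/-) BM. The log2 fold change was above 0 in 28 of 32, where 50.2% of all genes were, and over 1 in 20 of 32, where 7.57% of all genes were. Without Dnmt3a(+/-) replicate 2 it was above 0 in 28 of 31 (53.1% of all genes), but over 1 in only 4 of 31 (4.81%). In that fit 4 collagens had an unadjusted p under 0.05 (4.00% of all genes were higher at that level), namely *Col18a1*, *Col23a1*, *Col9a1* and *Col9a2*. BMT8 does not hold that tumor, but has Dnmt3a(+/+) replicate 3 alone in its group, so all its differences, here and below, rest on replicate 3. Within BMT8 19 of 32 had a higher mean log2 CPM with Dnmt3a(+/-) BM (49.2% of all genes), with a median difference of 0.16. In BMT18 it was 28 of 32, against 48.7% of all genes, with a median difference of 1.12. Without Dnmt3a(+/-) replicate 2, which leaves Dnmt3a(+/-) replicate 1 alone in its group there, it was 25 of 32 (51.7% of all genes) with 0.58. A graft by experiment term had an adjusted p under 0.05 in 0 of the 32 collagens in edgeR, and an unadjusted p under 0.05 in 3. Scaling by library size alone moved the median log2 fold change of all genes from 0.0025 to 0.21, with 11124 of 15810 above 0 in place of 7936 and 29 of the 32 collagens in place of 28, so directions near 0 depend on the scaling.

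**Figure D4:**
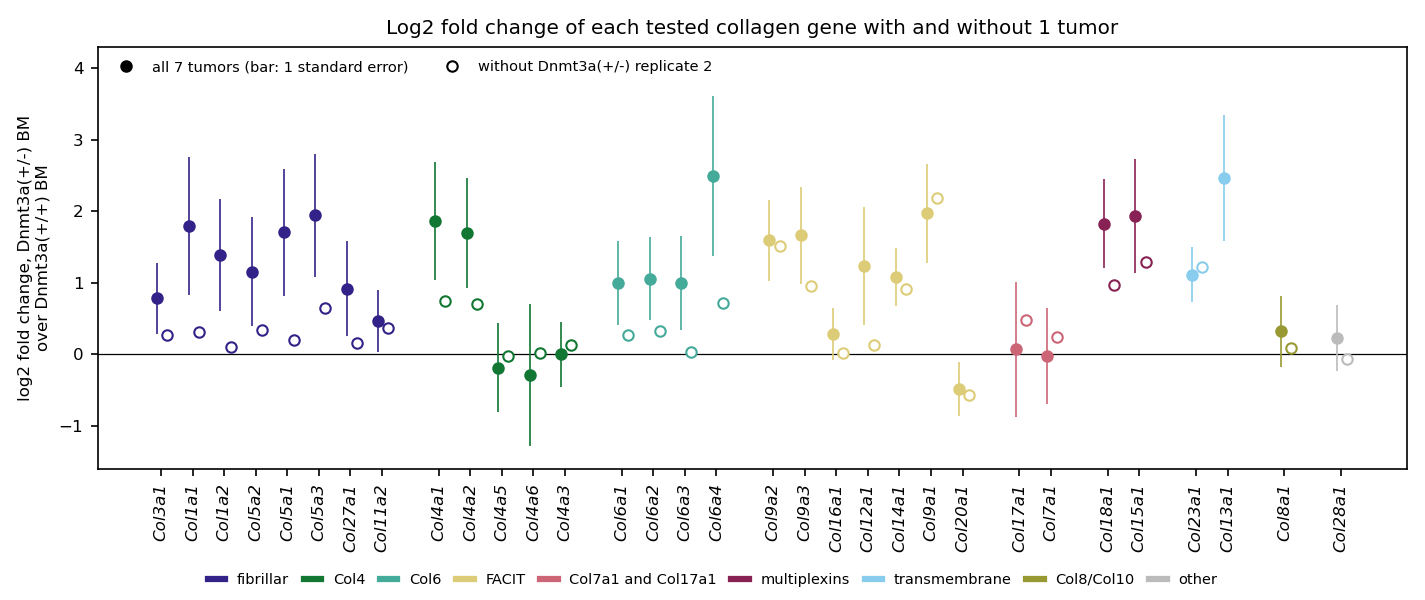
Log2 fold change of each tested collagen gene, Dnmt3a(+/-) BM over Dnmt3a(+/+) BM, by class (colors); filled points use all 7 tumors with a bar of 1 standard error on each side, open points leave out Dnmt3a(+/-) replicate 2. Fibrillar and Col6 genes fall from medians of 1.28 and 1.03 to 0.30 and 0.30, while *Col15a1*, *Col23a1*, *Col9a1* and *Col9a2* keep values over 1.

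Tested fibrillar collagens were all highest in Dnmt3a(+/-) replicate 2, most by a wide margin but *Col11a2* by little. The remaining 6 tumors were mixed. The 8 tested genes all had a log2 fold change above 0, with a median of 1.28 (0.30 without that tumor), and 0 had an unadjusted p under 0.05. *Col3a1*, a fibril former of distensible organs, was the most abundant per kb of the class (chromosome 1 from 45311538 to 45349706, GRCm38). Its CPM was 122, 74.2 and 129 with Dnmt3a(+/+) BM and 88.5, 361, 108 and 189 with Dnmt3a(+/-) BM (replicates in numerical order here and below), so the groups overlapped. *Col1a1* and *Col1a2* encode the chains of type I collagen, the main fibril of scar and stroma. *Col1a1* (chromosome 11 from 94936224 to 94953042) was at 13.7, 13.2 and 43.3 CPM with Dnmt3a(+/+) BM and 26.5, 239, 24.1 and 35.6 CPM with Dnmt3a(+/-) BM. On the log2 scale *Col1a1* differed by 1.79 (SE, the standard error, 0.96, adjusted p = 0.526 from edgeR) and 0.32 without Dnmt3a(+/-) replicate 2. For *Col1a2* the values were 27.4, 21.5 and 30.7 CPM against 31.7, 195.0, 26.7 and 25.4 CPM, and without that tumor the group means were 26.6 ± 4.70 (SD, n = 3) and 27.9 ± 3.34 (SD, n = 3).

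*Col5a3*, a minor chain that copolymerizes with type I collagen, had the largest log2 fold change of the class, 1.95 (SE 0.86, adjusted p = 0.462 from edgeR). Its CPM was 1.45, 2.08 and 3.09 with Dnmt3a(+/+) BM and 4.17, 23.8, 3.11 and 2.92 with Dnmt3a(+/-) BM, and it was 0.65 on the log2 scale without replicate 2. Within BMT8, where Dnmt3a(+/+) replicate 3 was alone in its group, most of the class pointed the other way. There 2 of the 8 genes had a higher mean and 6 a lower mean with Dnmt3a(+/-) BM, and the median difference of log2 CPM was -0.09. *Col1a1* differed by -0.56 there and by 3.32 in edgeR's fit of BMT18 alone. The makeup of the fibrillar set also varied, and the CPM of *Col3a1* was 1.51 times that of *Col1a1* in Dnmt3a(+/-) replicate 2 and 8.86 times in Dnmt3a(+/+) replicate 1.

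The Col4 chains split into those that followed Dnmt3a(+/-) replicate 2 and those that did not. *Col4a1* and *Col4a2*, which make the network found in nearly every basement membrane, were high in that tumor, whereas *Col4a3*, *Col4a5* and *Col4a6*, chains of more restricted basement membranes, were not. *Col4a1* (chromosome 8 from 11198423 to 11312826) was at 23.8, 30.8 and 69.7 CPM in Dnmt3a(+/+) replicates 1 to 3 and 44.4, 399.6, 62.9 and 96.5 CPM in Dnmt3a(+/-) replicates 1 to 4. Without replicate 2 the Dnmt3a(+/-) mean was 67.9 ± 26.4 (SD, n = 3), against 41.4 ± 24.7 (SD, n = 3), which is within the spread between tumors. Its log2 fold change was 1.87 (SE 0.83, adjusted p = 0.466 from edgeR), 0.74 without that tumor, and within BMT8 the difference was 0.16. *Col4a2* (chromosome 8 from 11312805 to 11449287) ran beside it, at 13.3, 19.0 and 44.02 CPM and at 29.5, 207.5, 41.4 and 51.3 CPM. Its log2 fold change was 1.70, and 0.71 without replicate 2. The 2 genes ranked the 7 tumors in the same order. The ratio of their CPM varied 1.28-fold at most, although the CPM of *Col4a1* covered a range from 23.8 to 399.6.

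*Col4a5* (chromosome X from 141475385 to 141689234) was high in 1 tumor of each group, at 13.4, 4.57 and 2.60 CPM with Dnmt3a(+/+) BM and 11.2, 4.24, 4.20 and 4.46 CPM with Dnmt3a(+/-) BM. *Col4a6*, its partner in smooth muscle and in some epithelial basement membranes, was at 3.60, 1.44 and 0.306 CPM and at 3.84, 0.469, 1.06 and 0.460 CPM. The tumors high in both, replicate 1 of each group, were also those with the highest squamous sums. *Col4a3*, a chain best known from the kidney glomerulus, stayed between 0.269 and 0.541 CPM. The log2 fold changes were -0.19, -0.29 and 0.0036 for *Col4a5*, *Col4a6* and *Col4a3*, and the median of the 5 tested chains, 0.0036 (0.14 without Dnmt3a(+/-) replicate 2), lies between the 2 sets. With scaling by library size alone that median was 0.20. The CPM of *Col4a5* was 0.564 times that of *Col4a1* in Dnmt3a(+/+) replicate 1 and 0.0106 times in Dnmt3a(+/-) replicate 2.

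*Col4a1* and *Col4a2* start head to head, with annotated 5′ ends that overlap by 22 bp, and *Col4a4* with *Col4a3* and *Col4a6* with *Col4a5* are arranged head to head as well, 71 and 1308 bp apart. Promoter windows of 300 bases (250 before and 50 after the start) were taken from RefSeq on GRCm38.p6 and were found for 35 of the 44 genes, 38 windows in all. The *Col4a1* window lies at chr8:11312777-11313076 on the minus strand and shares 78 bp with that of *Col4a2*. It is shown with that of *Col17a1*, at chr19:47691993-47692292 on the minus strand, because these genes had their highest and their lowest level in the same tumor, Dnmt3a(+/-) replicate 2. Capitals mark the TATA box (TATAAA), the CCAAT box, the GC box (GGGCGG) and the AP-1 site (TGANTCA) on either strand.
Col4a1: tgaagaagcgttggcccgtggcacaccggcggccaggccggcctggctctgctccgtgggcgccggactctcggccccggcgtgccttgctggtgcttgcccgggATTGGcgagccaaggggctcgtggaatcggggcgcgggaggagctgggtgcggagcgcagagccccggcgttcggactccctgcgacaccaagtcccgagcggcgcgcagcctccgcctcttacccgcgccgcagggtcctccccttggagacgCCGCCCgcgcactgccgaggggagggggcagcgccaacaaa
Col17a1: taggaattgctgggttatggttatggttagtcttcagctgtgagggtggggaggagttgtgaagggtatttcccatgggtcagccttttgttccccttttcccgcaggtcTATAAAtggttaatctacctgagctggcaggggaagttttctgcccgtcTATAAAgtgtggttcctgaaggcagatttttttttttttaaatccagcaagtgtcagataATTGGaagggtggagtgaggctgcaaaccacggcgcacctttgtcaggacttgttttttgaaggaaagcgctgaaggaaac
The *Col4a1* window had a GC content of 74.0%, 37 CpG dinucleotides, 1 CCAAT box and 1 GC box. The *Col17a1* window had a GC content of 46.3%, 5 CpG dinucleotides, the TATA box at 2 places and 1 CCAAT box. Across the 38 collagen windows the GC box occurred in 23, or 60.5%, against 35.7% of all 32851 windows. The CCAAT box occurred in 34.2% against 37.4%, the TATA box in 13.2% against 13.6% and the AP-1 site in 2.63% against 7.81%. The collagen windows were also richer in GC (median 59.85% against 52.7%) and in CpG dinucleotides (median 11.5 against 7). These are matches of letters only.

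Tested Col6 genes were highest in Dnmt3a(+/-) replicate 2, and in the other tumors they overlapped between the groups. All 4 tested genes had a log2 fold change of at least 1.00, with a median of 1.03 (0.30 without that tumor), and 0 had an unadjusted p under 0.05. *Col6a1* (chromosome 10 from 76708792 to 76726168) and *Col6a2* (from 76595762 to 76623630) encode chains that are needed together in 1 molecule. *Col6a1* was at 11.5, 11.3 and 7.01 CPM with Dnmt3a(+/+) BM and 11.6, 44.4, 15.5 and 8.17 CPM with Dnmt3a(+/-) BM. *Col6a2* was at 9.99, 11.3 and 7.34 CPM and at 10.7, 44.4, 15.98 and 8.62 CPM. The 2 stayed in step, with a ratio of CPM from 0.947 to 1.15, the narrowest range of the 11 ratios computed. *Col6a3*, the largest of its chains, was at 7.28, 6.20 and 9.82 CPM and at 6.91, 38.7, 8.45 and 7.98 CPM, and its log2 fold change fell from 1.00 to 0.03 without replicate 2. *Col6a4*, a chain that can take the place of *Col6a3*, varied most, at 2.12, 1.16 and 1.90 CPM and at 1.07, 30.6, 3.88 and 3.35 CPM. *Col6a4* had a log2 fold change of 2.50 (SE 1.11, adjusted p = 0.466 from edgeR), and 0.72 without that tumor.

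Among FACIT collagens, the type IX chains had higher means with Dnmt3a(+/-) BM in both experiments, and their values did not rest on Dnmt3a(+/-) replicate 2 alone. The class had 6 of 7 tested genes with a log2 fold change above 0 and a median of 1.23 (0.91 without that tumor), and 4 had an unadjusted p under 0.05. *Col9a2* (chromosome 4 from 121039385 to 121055322) was at 4.38, 3.15 and 10.2 CPM with Dnmt3a(+/+) BM and 6.79, 21.8, 26.6 and 16 CPM with Dnmt3a(+/-) BM, so 3 of the 4 Dnmt3a(+/-) tumors were above all Dnmt3a(+/+) tumors. Its log2 fold change was 1.60 (SE 0.57, adjusted p = 0.406 from edgeR, exact permutation test of log2 CPM, two-sided p = 0.0857), and 1.52 without replicate 2. Fitted in BMT18 alone it was 1.95, and the difference of mean log2 CPM in BMT8 was 1.02. *Col9a3* was at 2.61, 4.56 and 7.62 CPM and at 5.29, 34.5, 10.1 and 12.8 CPM, with a log2 fold change of 1.67, and 0.96 without replicate 2.

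*Col9a1* was low, at 0.215, 0.0937 and 0.275 CPM with Dnmt3a(+/+) BM and 0.299, 0.469, 1.38 and 0.865 CPM with Dnmt3a(+/-) BM. The groups did not overlap, and the log2 fold change was 1.97 (2.19 without replicate 2), but the lowest Dnmt3a(+/-) value lay close to the highest Dnmt3a(+/+) value and the gene had only 6 to 68 counts per tumor. Type IX collagen is best known from cartilage, and cartilage and bone genes were near 0 here: the summed CPM of *Acan*, *Matn1*, *Sp7*, *Bglap* and *Ibsp* was at most 0.460, *Matn1* was at 0 in every tumor, and *Col2a1*, the fibril collagen of cartilage, had at most 12 counts. Enteric glia and neuron genes moved with the type IX chains, since the summed CPM of 6 of them was 5.48, 6.39 and 8.87 with Dnmt3a(+/+) BM and 12.7, 25.4, 30.7 and 36.8 with Dnmt3a(+/-) BM, and their part in these values was not tested. *Col14a1*, a fibril-surface collagen of stroma, did not overlap between groups, at 1.16, 0.827 and 1.16 CPM and at 1.45, 3.12, 1.85 and 2.49 CPM. Its log2 fold change was 1.09 (SE 0.40, adjusted p = 0.419 from edgeR), and 0.91 without replicate 2. *Col16a1*, another collagen found on fibrils, was at 11.9, 14.6 and 6.88 CPM and at 12.9, 20.9, 11.4 and 9.03 CPM, with a log2 fold change of 0.28 and overlap. *Col12a1* overlapped as well, with 1.23 (0.13 without replicate 2), and *Col20a1* was the class's only gene with a lower mean, at -0.49.

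*Col17a1* and *Col7a1* were lowest in the tumor where most other collagens were highest. *Col17a1* (chromosome 19 from 47646344 to 47692094) was at 196, 56.1 and 92.2 CPM in Dnmt3a(+/+) replicates 1 to 3 and 292, 8.52, 70.03 and 113 CPM in Dnmt3a(+/-) replicates 1 to 4. The lowest value was in Dnmt3a(+/-) replicate 2, and the other tumors of the groups overlapped. *Col7a1* (chromosome 9 from 108953586 to 108984875) was at 14.7, 4.84 and 15.3 CPM and at 26.4, 4.75, 6.11 and 8.57 CPM. For both genes the difference between the group means was smaller than the spread between tumors. *Col17a1* had a log2 fold change of 0.07 (SE 0.94, adjusted p = 0.988 from edgeR) and *Col7a1* one of -0.02 (SE 0.67, adjusted p = 0.995), which was 0.18 with library size alone. The standard errors leave room for a change in either direction. Without replicate 2 the values were 0.48 and 0.25, and *Col7a1* had 0.67 in the fit of BMT18 alone and a difference of -1.08 in mean log2 CPM in BMT8.

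The order of the tumors by *Col17a1* was nearly that of the squamous sum. Dnmt3a(+/-) replicate 1 and Dnmt3a(+/+) replicate 1 led both orders, and Dnmt3a(+/-) replicate 3, Dnmt3a(+/+) replicate 2 and Dnmt3a(+/-) replicate 2 closed both. *Col17a1* spanned from 8.52 to 292 CPM and the squamous sum from 263 to 23210. The 7 squamous genes had log2 fold changes between the groups from -0.53 to 0.36. *Col4a1* followed the endothelial sum in the same way, and the 4 tumors highest in *Col4a1* were also the 4 highest in the endothelial sum, although 2 of them changed places. For *Col1a1* the fibroblast sum was a looser match, as Dnmt3a(+/-) replicate 1 was second by the sum and 4th by *Col1a1*. These orders are across 7 tumors, with both values of a tumor from the same library, and they are given as a description. The CPM of *Col17a1* was 14.3 times that of *Col1a1* in Dnmt3a(+/+) replicate 1 and 0.0357 times in Dnmt3a(+/-) replicate 2.

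**Figure D5:**
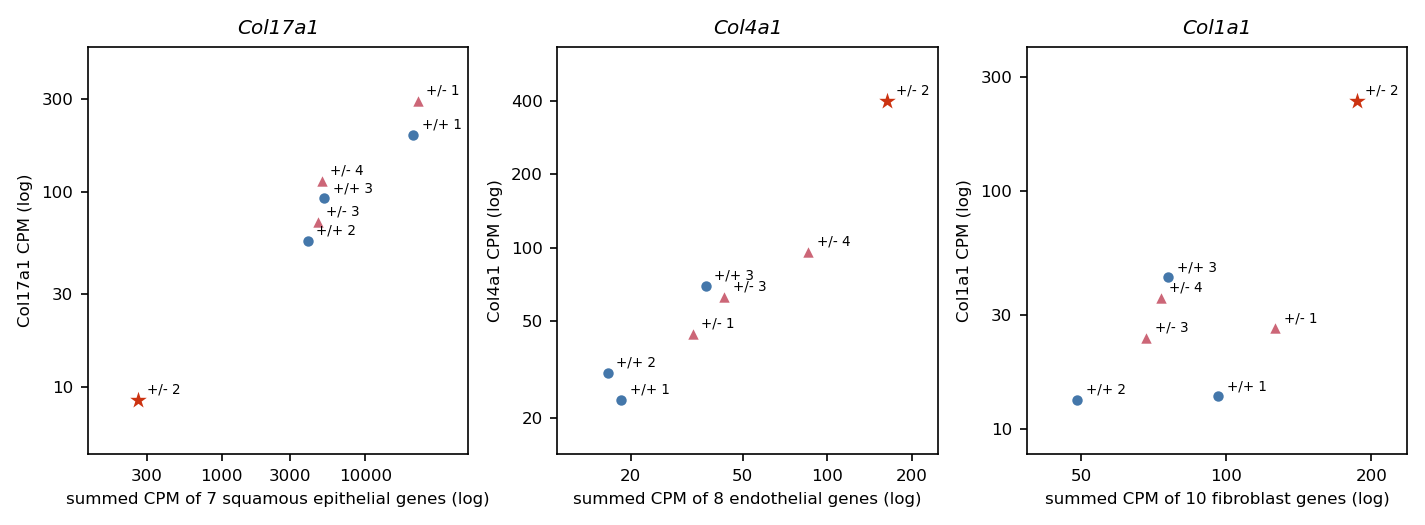
CPM of *Col17a1*, *Col4a1* and *Col1a1* (y axes, log scale) against the summed CPM of 7 squamous epithelial, 8 endothelial and 10 fibroblast genes (x axes, log scale); each point is 1 tumor, labelled by the genotype of its graft and its replicate number. Dnmt3a(+/-) replicate 2 (star) sits at the lower left for *Col17a1*, at 8.52 CPM, and at the upper right for *Col4a1* and *Col1a1*, at 399.6 and 239 CPM.

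The multiplexins *Col18a1* and *Col15a1* had higher means with Dnmt3a(+/-) BM in both experiments. *Col18a1*, whose C-terminal fragment is endostatin, is a proteoglycan of vessel and epithelial basement membranes (chromosome 10 from 77052178 to 77166548). It was at 16.9, 14.4 and 21.1 CPM with Dnmt3a(+/+) BM and 27.97, 147, 33.3 and 39.8 CPM with Dnmt3a(+/-) BM, so the groups did not overlap. *Col18a1* had a log2 fold change of 1.83 (SE 0.62, adjusted p = 0.403 from edgeR and 0.0616 from DESeq2). By an exact permutation test of log2 CPM the two-sided p was 0.0571, where 0.0286 is the smallest that 4 against 3 tumors allow. Without replicate 2 the means were 33.7 ± 5.91 (SD, n = 3) and 17.4 ± 3.37 (SD, n = 3), and the log2 fold change was 0.98. It was 2.51 in the fit of BMT18 alone, and the difference of mean log2 CPM in BMT8 was 0.79. The opposite strand of *Col18a1* holds part of *Slc19a1*, and the counting was not stated to use strand. *Col15a1*, which ties basement membranes to the stroma, was at 1.59, 1.48 and 5.08 CPM and at 3.19, 21.8, 4.31 and 12.1 CPM, with overlap. Its log2 fold change was 1.93, and 1.30 without replicate 2.

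Among the transmembrane collagens, *Col23a1* differed without the help of Dnmt3a(+/-) replicate 2. *Col23a1* (chromosome 11 from 51289920 to 51583918), a membrane collagen that can be shed from the cell surface, was at 3.41, 2.03 and 1.32 CPM with Dnmt3a(+/+) BM and 5.94, 4.10, 4.67 and 4.84 CPM with Dnmt3a(+/-) BM. The groups did not overlap, and replicate 2 was the lowest of its group. For *Col23a1* the log2 fold change reached 1.12 (SE 0.39, adjusted p = 0.406 from edgeR and 0.0827 from DESeq2, exact permutation test, two-sided p = 0.0286, the smallest possible). It was 1.22 without replicate 2 and 0.89 in the fit of BMT18 alone, and the difference of mean log2 CPM in BMT8 was 1.82. *Col13a1*, found where cells adhere to the matrix, did not overlap either, at 0.134, 0.0468 and 0.0612 CPM and at 0.150, 1.1, 0.264 and 0.270 CPM, with a log2 fold change of 2.47. It had only 2 to 54 counts per tumor and did not pass edgeR's filter on low counts without replicate 2. In all, 5 of the 32 collagens lay without overlap above the Dnmt3a(+/+) tumors, where 6.12% of all genes did, and 0 of 32 lay below, where 6.32% did. The 5 were *Col9a1*, *Col13a1*, *Col14a1*, *Col18a1* and *Col23a1*. Among the remaining classes, *Col8a1*, a network collagen of vessel walls, and *Col28a1* had log2 fold changes of 0.32 and 0.23.

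The genes that make and organize collagen showed 0 calls in edgeR in each of 5 lists, and most had a higher mean with Dnmt3a(+/-) BM. Of 17 tested genes for chain synthesis and folding, 12 had a log2 fold change above 0 (16 with library size alone) and 0 had an unadjusted p under 0.05, with a median of 0.42 (0.06 without replicate 2). *Serpinh1*, the collagen chaperone HSP47, was at 21.01, 10.5 and 22.5 CPM and at 23.2, 124, 23.7 and 37.3 CPM, with a log2 fold change of 1.53 (0.67 without replicate 2). *Plod1* and *P4ha3*, a lysyl and a prolyl hydroxylase, had log2 fold changes of 0.88 and 0.86. Without replicate 2 *Plod1* had 0.33, and *P4ha3* did not pass the filter on low counts. Of 12 genes for processing and crosslinking, 8 were above 0 and 1, *Loxl3* of the lysyl oxidase family, had an unadjusted p under 0.05, with a log2 fold change of 2.23 and 1.15 without replicate 2. *Adamts2*, which cleaves the N-propeptide of fibrillar procollagens, and *Loxl2* had values of 1.84 and 1.76, and 0.61 and 0.28 without it. Of 6 fibril-binding genes, 5 were above 0, and *Bgn*, *Sparc* and *Dcn* had log2 fold changes of 1.86, 1.55 and 0.50, and of 0.35, 0.58 and 0.20 without replicate 2. The median of these 6 genes went from 0.62 to 0.27. All 8 tested collagen receptors were above 0 with a median of 0.46 (0.13 without replicate 2), and *Itga10*, an integrin chain that binds collagen, had a log2 fold change of 1.36, with *Mrc2* at 1.09 and *Itga1* at 0.73. Without replicate 2 these were 1.17, 0.14 and 0.21.

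Partners of collagen IV in basement membranes had a median that changed little without Dnmt3a(+/-) replicate 2, although their largest values fell. Of 18 tested genes, 12 had a log2 fold change above 0 (15 with library size alone), 7 had an unadjusted p under 0.05 (5 without replicate 2), and the median was 0.69, and 0.54 without replicate 2. A log2 fold change over 1 was seen in 6 of them with all tumors and in 0 without replicate 2, and that of *Lama1*, a laminin chain named for having the largest value, went from 3.32 to 0.92. *Lamb2*, a laminin chain of vessel and muscle basement membranes, was at 29.5, 19.7 and 31.9 CPM with Dnmt3a(+/+) BM and 46.1, 58.2, 36.0 and 60.2 CPM with Dnmt3a(+/-) BM, without overlap. Its log2 fold change was 0.89 (SE 0.25, adjusted p = 0.361 from edgeR and 0.0656 from DESeq2), and 0.84 without replicate 2. *Lamb1*, another laminin chain, was at 15.99, 9.66 and 16.8 CPM and at 26.97, 80.98, 22.6 and 24.1 CPM. *Nid1*, which links laminin to collagen IV, was at 8.92, 6.07 and 7.43 CPM and at 10.5, 55.2, 14.6 and 15.1 CPM. Both were without overlap, with log2 fold changes of 1.45 and 1.67, and of 0.82 and 0.87 without replicate 2. The endothelial genes had a log2 fold change above 0 in 8 of 8, with a median of 1.74 (1.2 without replicate 2), beside these values.

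The 12 collagens that did not pass the filter on low counts were *Col2a1*, *Col4a4*, *Col6a5*, *Col6a6*, *Col8a2*, *Col10a1*, *Col11a1*, *Col19a1*, *Col22a1*, *Col24a1*, *Col25a1* and *Col26a1*. They had 4 to 119 counts over all 7 tumors, and none of them is compared between the groups here, except that *Col22a1* had an unadjusted p under 0.05 in DESeq2 and in edgeR without the filter. *Col22a1*, *Col24a1* and *Col6a5* had 81, 46 and 45 of their counts in Dnmt3a(+/-) replicate 2. *Col4a4* had 2 to 18 counts per tumor. With most counts low, these genes added little to any class sum.

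By rank over the 7 tumors, the genes other than collagens most like *Col1a1* were *Fbln5*, *Sipa1*, *Ifnar2*, *Arrb2* and *Ap2a1*, each with a Spearman rho of 1.0, which 7 genes reached. For *Col4a1* they were *Slc4a8*, *Stip1*, *Ttll1*, *Pdia4* and *Rbbp7* (40 genes at that rho), and for *Col17a1* they included *Mgat5b*, *Cyp2f2*, *Gsta4* and *Popdc3* (24 genes). With 7 tumors, 1 of which stands apart, many genes reach the same order, and ties were ordered by Pearson's r. Among collagens, *Col4a2* had a rho of 1.0 with *Col4a1*, and *Col7a1* had 0.893 with *Col17a1*. *Col1a1* and *Col17a1* had -0.179.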

How the data were processed

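Polyadenylated RNA of 7 whole colon tumors was sequenced. From trimmed reads (Trimmomatic) aligned by STAR to the mouse build mm10, the authors made expected counts (estimated counts) per gene with RSEM and deposited them as whole numbers without normalization. Symbols and positions were matched for 42462 of 43346 genes from GENCODE M21 (GRCm38), whose version need not be the authors'. Reads that overlapping genes share rest on RSEM's division.

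The comparison of the groups used edgeR 4.0.16 under R 4.3.3 (TMM, filterByExpr, quasi-likelihood test, no covariate, Benjamini-Hochberg adjustment over all 15810 genes tested). Calls needed an adjusted p below 0.05 and a log2 fold change beyond 1 in either direction. The test was checked on simulated data with no outlying tumor, which does not show its power in these tumors. log2 CPM used a prior count of 2, and levels per kb used the union of annotated exons. DESeq2 1.42.0, other scalings and filters, the experiment as a covariate, a replicate block, BMT18 alone and each tumor left out were alternatives. The labels number the tumors as biological replicates, and p-values weigh a difference against the spread between these tumors. The sample names of all Dnmt3a(+/-) tumors but replicate 1 carry an added suffix, and those of the Dnmt3a(+/+) tumors do not. The labels do not explain it.

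The members, classes, gene lists and tests were chosen with earlier results of these data known. Named were *Col7a1* and *Col17a1*, in the fibrillar, Col4, Col6 and FACIT classes the 3 genes highest per kb and the one with the largest absolute log2 fold change, in other classes genes with an unadjusted p under 0.05, in the lists up to 3 genes of lowest p, and the 5 genes most like *Col1a1*, *Col4a1* and *Col17a1* by rank, of which 1 is not reported here. Other collagens were named after their values were seen. The columns hold counts of these 7 tumors only.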

Additional observations from a re-analysis of the deposited data

Results flagged for a closer look

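Among the 4 Dnmt3a(+/-) tumors, 12 of the 41 values examined (the CPM of each tested collagen and the share of each class) had a tumor far from the other 3, with a gap above the 95% critical value of Dixon's test, where chance gives about 2.1. In 11 of the 12 the tumor was replicate 2, and it was the highest. Its CPM was 238.6 for *Col1a1*, 195.0 for *Col1a2*, 48.92 for *Col5a1* and 23.82 for *Col5a3* among fibrillar genes, 399.6 for *Col4a1* and 207.5 for *Col4a2* among Col4 chains, and 38.73 for *Col6a3* and 30.56 for *Col6a4* among Col6 chains. It was 147.0 for *Col18a1*, 1.1 for *Col13a1* and 0.6927 for *Col28a1*. These values come from 1 tumor and are not independent of each other. The endothelial and fibroblast sums were the highest of the 7 in the same tumor, and its squamous sum was the lowest.

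The 12th value was the CPM of *Col4a5* in Dnmt3a(+/-) replicate 1, 11.23, where the other 3 of its group were between 4.20 and 4.46. Dnmt3a(+/+) replicate 1 was at 13.4, and both tumors had squamous sums of 23210 and 21580, the 2 highest.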

How the results depend on the processing

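The 21 named collagens had 326 values under alternatives, not counting the DESeq2 fits with a tumor left out, which are given below. Of these 326 values, 309 kept their direction and their side of the threshold and 17 changed sign, all of *Col7a1*, *Col17a1* or *Col4a5*. For *Col7a1*, at -0.02 with all 7 tumors, the log2 fold change was 0.0016 with DESeq2's size factors in edgeR, 0.18 with library size alone, 0.0010 in DESeq2, 0.67 in BMT18 alone, 0.096 for replicates 1 to 3 and -0.82 to 0.25 with 1 tumor left out. For *Col17a1* it went from -0.85 to 0.70 with 1 tumor left out, and for *Col4a5* from -0.67 to 0.74, with 0.14 under the experiment as a covariate.

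edgeR called 0 genes and 0 collagens under each alternative run. The 8 collagens at an unadjusted p under 0.05 became 12 with library size alone, 13 without a filter, 3 with the replicate block and 0 to 11 with 1 tumor left out. Over all genes, in either direction, 1744 of 15810 became 1975 of 15810, 2006 of 24352 and 1849 of 15632 in the first 3. With 1 tumor left out they became 883 of 16299 to 2143 of 15587. DESeq2 called 300 genes with all tumors. Without Dnmt3a(+/+) replicates 1, 2 and 3 in turn it called 231, 63 and 441, and without Dnmt3a(+/-) replicates 1 to 4 it called 697, 171, 201 and 259. Its collagen calls, 0 with all 7 tumors, were 0 to 6 then: *Col23a1* without Dnmt3a(+/+) replicate 1, 3 (*Col4a2*, *Col9a2*, *Col15a1*) without Dnmt3a(+/+) replicate 3, and 6 (*Col4a1*, *Col9a2*, *Col9a3*, *Col14a1*, *Col15a1*, *Col18a1*) without Dnmt3a(+/-) replicate 1. Without Dnmt3a(+/-) replicate 2 DESeq2 called 0, but its lowest adjusted p of a collagen was 0.0387, with a log2 fold change not beyond 1. These DESeq2 fits with a tumor left out, the differences of mean log2 CPM within experiments and the fit of replicates 1 to 3 without a block were chosen after seeing the data. With 1 tumor left out, the median log2 fold change went from 0.32 to 1.36 for all collagens, 0.30 to 1.57 for fibrillar, -0.0412 to 0.92 for Col4, 0.30 to 1.29 for Col6, 0.91 to 1.75 for FACIT and -0.84 to 0.44 for *Col7a1* and *Col17a1*. The lowest values for all, fibrillar, Col6 and FACIT collagens came without Dnmt3a(+/-) replicate 2. The Col4 median, which falls between chains that differ, was 0.39 in DESeq2, 0.38 without a filter, 0.30 with the experiment as a covariate and 0.53 in BMT18 alone. The fibrillar share with Dnmt3a(+/+) BM was 30.4% by exon union and 38.9% by longest transcript. The causes of these shifts were not tested, apart from the tumors left out and the chains added.

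Tumors of the same number came from the same experiment, numbers 1 and 2 both from BMT18, and the labels tie them no further. The correlation of deviations from the group means was 0.568, 0.071 and -0.038 for numbers 1 to 3, and not every tumor correlated best with its own number. With the replicate block on numbers 1 to 3, edgeR called 0 genes (1849 at an unadjusted p under 0.05, and 1754 without the block). Under the block the median was -0.48 for *Col7a1* and *Col17a1*, and the log2 fold change was -0.79 for *Col17a1* and 0.10 for *Col4a5*.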
